A study of Homo sapiens with 3 samples.

Results

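The 7 genes FOS, FOSB, FOSL1, FOSL2, JUN, JUNB and JUND encode the FOS and JUN subunits of the transcription factor AP-1, and they were taken by gene symbol from the 19266 genes of each deposited table, where all 7 were found. The cells were of the established line KYSE510, from a human squamous carcinoma of the esophagus, given lentivirus for 24 h and then kept in 4 µM puromycin for 48 h. The virus carried hairpin 1 (sh1) or hairpin 2 (sh2) against the transcript TCONS_02256997, or a scrambled hairpin (control), so every group, control included, had been through infection and selection. The stated aim was to screen for targets of that transcript, which itself was not analysed here. Each group was a single sample that came with 3 numbered tables, taken here as 3 libraries. Whether these were separate cultures, libraries or runs is not stated in the labels, so every error and p-value below measures the spread between tables only, which may be technical.

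AP-1 binds DNA as a pair of subunits held together by a leucine zipper. JUN proteins pair with each other or with FOS proteins, whereas FOS proteins need a JUN partner. FOS, FOSB, JUN and JUNB are immediate early genes, switched on within minutes by growth factors, cytokines and stress through the ERK, JNK and p38 kinases. FOSL1 (the protein FRA-1) and FOSL2 (FRA-2) lack the strong activation domain of FOS and stay on for longer, with FOSL1 well known in squamous carcinomas and in cells with high RAS and ERK signalling. JUND is present in most resting cells. In squamous epithelium AP-1 acts on genes of proliferation, inflammation, matrix turnover and the cornified envelope.

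Promoters are shown for FOS and FOSB, which were furthest below control with both hairpins, for JUNB, the most abundant member, and for JUND, which changed least. RefSeq's promoter table (build GRCh38.p14) held 6 of the 7 members, the exception being FOSL1. The last 140 bases before the transcription start are given below from 5′ to 3′ on the gene's strand, with capitals for TGACG, the core of the cyclic AMP response element (CGTCA where it lies on the other strand), and for the TATA box letters TATAAA. FOS lies at chr14:75278688-75278827 on the plus strand, FOSB at chr19:45467856-45467995 on the plus strand, JUNB at chr19:12791346-12791485 on the plus strand and JUND at chr19:18281623-18281762 on the minus strand.
FOS: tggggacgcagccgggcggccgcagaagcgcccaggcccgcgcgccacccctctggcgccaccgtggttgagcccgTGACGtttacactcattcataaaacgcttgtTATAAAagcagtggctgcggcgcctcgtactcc
FOSB: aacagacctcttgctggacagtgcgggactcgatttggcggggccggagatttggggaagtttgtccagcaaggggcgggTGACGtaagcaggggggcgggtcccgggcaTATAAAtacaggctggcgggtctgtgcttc
JUNB: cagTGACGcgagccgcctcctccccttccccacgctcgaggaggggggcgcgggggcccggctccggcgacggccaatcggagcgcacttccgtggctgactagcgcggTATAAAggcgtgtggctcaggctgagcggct
JUND: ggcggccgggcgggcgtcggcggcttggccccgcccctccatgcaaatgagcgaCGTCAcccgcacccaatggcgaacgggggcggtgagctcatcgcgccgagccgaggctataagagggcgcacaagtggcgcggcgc

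Over the 250 bases before the start, searched on both strands, TGACG was present in 6 of the 6 member promoters. The share was 21.2% of all 35116 promoters in the table and 26.95% of the 16157 promoters of genes that entered the fit below. The longer TGACGT, which contains TGACG, was present in 4 of the 6 (FOS, FOSB, FOSL2 and JUND), in 7.1% of all and in 9.14% of fitted genes. In FOS and FOSB it began 64 and 60 bases before the start, with TATAAA at 33 and 30 bases. TATAAA was present in 3 of the 6 (FOS, FOSB and JUNB), in 10.7% of all promoters and in 6.44% of those of fitted genes. The full element TGACGTCA was found in JUND alone of the 6, 200 bases before the start, and its variant TGACATCA in JUN alone, 67 bases before the start. TGACGTCA was present in 1.65% of all promoters and in 2.4% of those of fitted genes, and TGACATCA in 2.37% and 1.44%. The AP-1 element TGANTCA was found in 0 of the 6 windows, in 6.57% of all and in 4.88% of those of fitted genes. A match is a run of letters and not a measured binding site.

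Total expected counts per library were 14660821 to 14770512 with sh1, 15759270 to 16092417 with sh2 and 15012961 to 15414591 in control. The squamous label held up against its markers: all 7 squamous markers and all 4 general epithelial markers were detected in every group, with the squamous sum at 4040 to 4123 TPM with sh1, 5431 to 5495 TPM with sh2 and 6561 to 6622 TPM in control. The general epithelial sum went the other way, at 4709 to 4816 TPM with sh1, 4872 to 4922 TPM with sh2 and 3923 to 3961 TPM in control. Single markers did not all follow their sum. KRT18 averaged 1004 TPM with sh1 against 1143 in control, and CDH1 216 with sh2 against 218. KRT6A averaged 55 TPM with sh1 and 77.2 with sh2 against 55.6 in control, and PERP 296 with sh2 against 292. The other marker means moved with the sum of their list. Marker sums of leukocytes, fibroblasts and endothelium stayed between 6.27 and 28.1 TPM in every library. Most of these sums came from COL1A1 (20.1 to 28 TPM), LYZ (8.39 to 13.2 TPM) and CDH5 (4.26 to 8.9 TPM), while the T cell marker CD3E and the fibroblast marker COL1A2 were at 0 in all sh2 and control libraries and at most 0.11 and 0.03 TPM with sh1. TPM is scaled for transcript length and sequencing depth and is used here to set genes side by side. The part of these marker differences in the results below was not tested.

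All 7 members passed the filter on low counts and entered the fit over 13580 genes. With sh1, 7 of 7 members were lower than control at an adjusted p below 0.05 (quasi-likelihood test of edgeR, Benjamini-Hochberg adjustment over all genes), where 34.6% of all tested genes were lower, 34.7% higher and 69.3% one or the other. With sh2, 6 of 7 were lower, against 34.3% of all tested genes lower, 34.2% higher and 68.5% in either direction, and JUND was not called. Being lower with both hairpins held for 6 of 7 members and for 20.2% of tested genes. Both hairpins were set against the same control libraries. For the mean of the hairpins, 7 of 7 members were lower, beside 35.5% of tested genes lower, 33.9% higher and 69.4% in either direction, and 4 were at least 2-fold lower, beside 3.36%. With the 3 tables of each sample summed, the 2 hairpin samples shared 1 fitted level, set against 1 control. That level is not the average of the 2 log2 changes used above, which was -1.49 for FOSL1. The log2 fold changes of the shared level were -2.54 for FOS, -2.68 for FOSB, -1.06 for FOSL1 and -0.78 for FOSL2. For JUN, JUNB and JUND they were -0.5, -1.34 and -0.15. A single control sample gives no measure of the spread between control samples, so the calls above do not cover it. The median log2 fold change of the members was -1.66 with sh1 and -0.67 with sh2, beside 0.014 and 0.005 over all tested genes. With sh1, 4 members were at least 2-fold lower (FOS, FOSB, FOSL1 and JUNB), a size reached downward by 5.21% of tested genes. With sh2 there were 3 (FOS, FOSB and JUNB), against 4.61% of tested genes. In these bulk libraries, fewer cells with a transcript and less transcript per cell cannot be told apart.

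**Figure D1:**
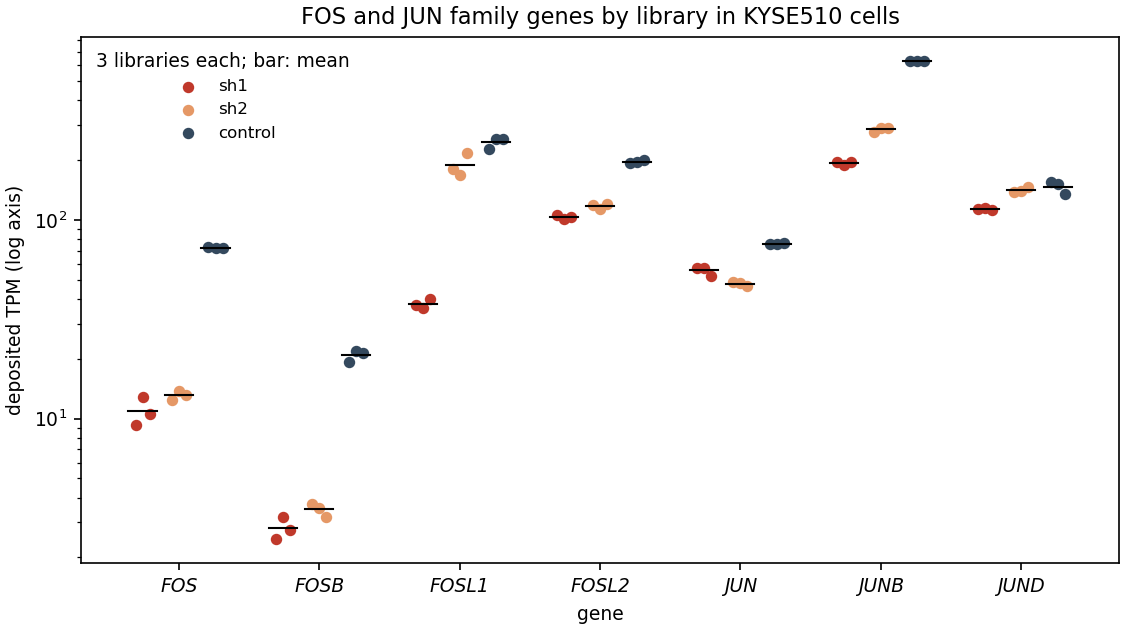
Deposited TPM (log axis) of each FOS and JUN family gene in each library, with 3 libraries each of sh1, sh2 and control and a bar at the group mean. FOS and FOSB are low with both hairpins, FOSL1 is low with sh1 and near control with sh2, and JUND differs least.

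FOS (Entrez gene 2353), the founding subunit and a classical growth factor response gene, fell by more than 5-fold with both hairpins. FOS stood at 9.29, 12.85 and 10.49 TPM in the sh1 libraries, at 12.34, 13.84 and 13.16 TPM in the sh2 libraries and at 73.04, 72.09 and 72.48 TPM in the control libraries. Every hairpin library lay far below every control library, while the sh1 and sh2 ranges overlapped. The log2 fold change of FOS was -2.69 ± 0.072 with sh1 (SE, n = 3, adjusted p = 6.05e-24 in edgeR) and -2.4 ± 0.068 with sh2 (adjusted p = 3.35e-23 in edgeR). Those are levels 6.44-fold and 5.27-fold below control, and they placed FOS 38th and 32nd from the lowest of the 13580 fold changes. FOS rested on 121 to 202 expected counts per hairpin library and 933 to 982 per control library.

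FOSB (2354), the paralog whose truncated splice form is known from long-lasting stimulation, was about as far below control and stood at a lower level. It stood at 2.48, 3.2 and 2.76 TPM with sh1, at 3.72, 3.56 and 3.21 TPM with sh2 and at 19.24, 21.87 and 21.48 TPM in control. The hairpin libraries again lay below all control libraries. The log2 fold change of FOSB was -2.84 ± 0.094 with sh1, the lowest of the 7 members, and -2.52 ± 0.088 with sh2. FOSB had 57 to 94 expected counts in the hairpin libraries, the fewest of the family. The deposited tables give 1 value over both FOSB transcripts, with a mean length of 3776 bases in 7 of the 9 libraries and 3709 and 3715 bases in libraries 2 and 3 of sh2, so the splice forms were not compared. FOSB overlaps ERCC1 on the opposite strand, whose own log2 changes were -0.22 ± 0.045 with sh1 and -0.071 ± 0.044 with sh2.

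FOSL1 (8061), the FOS family gene at the highest level in control cells, was the member on which the hairpins differed most. FOSL1 stood at 37.11, 36.02 and 40.1 TPM with sh1, at 180.88, 167.88 and 217.63 TPM with sh2 and at 226.47, 256.81 and 254.19 TPM in control. The sh1 libraries formed a group far below the other 6, and the sh2 libraries lay just under the control range, with sh2 library 3 closest to it. The log2 fold change of FOSL1 was -2.66 ± 0.07 with sh1 and -0.32 ± 0.052 with sh2 (edgeR adjusted p = 3.07e-06), a 6.32-fold and a 1.25-fold lower level. Between the hairpins the log2 difference, sh1 against sh2, was -2.34 ± 0.071 (edgeR adjusted p = 2.87e-22), the 23rd lowest of the 13580 genes in that comparison. Leaving out sh2 library 3 gave -0.43 for sh2 against control. The FOSL1 value sums over 5 RefSeq transcripts, and its mean length ran from 1630 to 1697 bases with sh1, from 1634 to 1692 with sh2 and from 1653 to 1680 in control, ranges that overlapped.

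FOSL2 (2355), the other FOS-related antigen, fell by less than 2-fold with either hairpin. It stood at 105.84, 100.88 and 103.49 TPM with sh1, at 119.45, 113.95 and 119.96 TPM with sh2 and at 194.46, 194.56 and 201.07 TPM in control. The 3 ranges did not overlap. The log2 fold change of FOSL2 was -0.88 ± 0.03 with sh1 and -0.67 ± 0.029 with sh2, or 1.84-fold and 1.59-fold lower. FOSL2 overlaps the antisense gene FLJ31356 and an intronic gene on its own strand. Neither was found by name among the symbols given to the deposited genes, and another name was not searched, so their changes were not examined.

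JUNB (3726), a JUN protein that often restrains proliferation and is induced with FOS, was the most abundant member in every library and had the largest difference in TPM. JUNB stood at 196.04, 189.34 and 194.55 TPM with sh1, at 277.45, 289.57 and 290.09 TPM with sh2 and at 633.03, 629.95 and 627.75 TPM in control. In control it ranked 209th to 211th of all genes by TPM, and with sh1 866th to 896th. Its log2 fold change was -1.66 ± 0.03 with sh1 and -1.07 ± 0.029 with sh2, or 3.16-fold and 2.11-fold lower, and none of the 3 ranges overlapped. JUNB overlaps HOOK2 on the opposite strand, which changed by -0.15 ± 0.054 and -0.39 ± 0.055 with sh1 and sh2.

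JUN (3725), the subunit that JNK phosphorylates and the strongest activator of its class, fell modestly with both hairpins. JUN stood at 57.5, 57.43 and 52.46 TPM with sh1, at 48.61, 48.34 and 46.44 TPM with sh2 and at 75.8, 75.92 and 76.5 TPM in control. It was the sole member that was lower with sh2 than with sh1. The log2 fold change of JUN was -0.4 ± 0.039 with sh1 and -0.6 ± 0.039 with sh2, and sh1 against sh2 gave 0.2 ± 0.041 (edgeR adjusted p = 7.08e-05).

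JUND (3727), the constitutive member of the class, changed least. It stood at 113.77, 114.55 and 111.67 TPM with sh1, at 137.74, 140.03 and 146.38 TPM with sh2 and at 154.64, 151.12 and 135.1 TPM in control. The sh1 libraries lay below all others, whereas the sh2 range fell within the control range. The log2 fold change of JUND was -0.33 ± 0.045 with sh1 (edgeR adjusted p = 1.5e-07). With sh2 it was 0.011 ± 0.043 (edgeR adjusted p = 0.837), with a 95% interval of -0.077 to 0.098 that covers the spread between tables only.

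**Figure D2:**
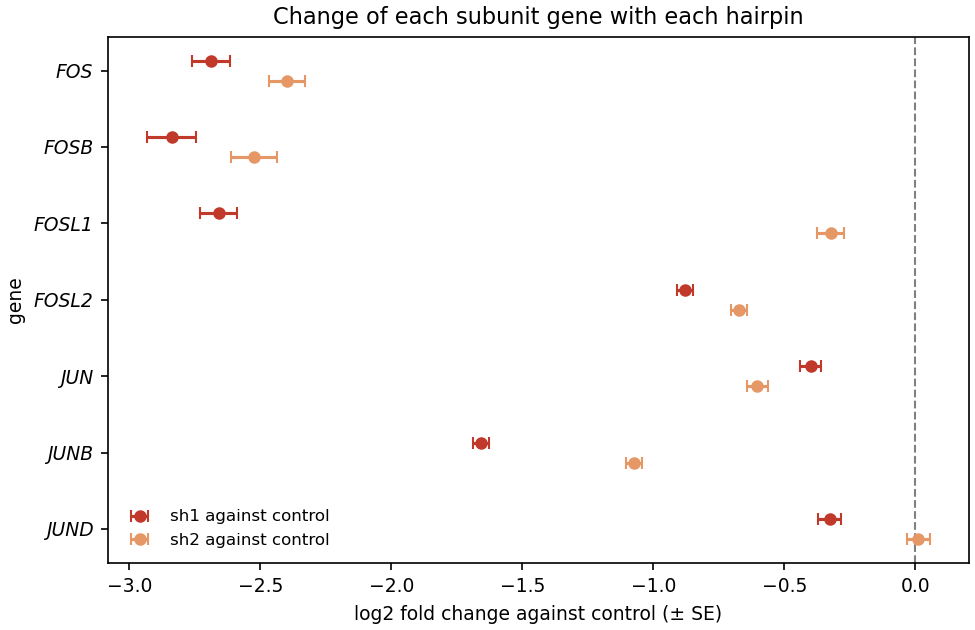
Log2 fold change against control (± SE of the fit, 3 libraries per group) of each subunit gene with sh1 and with sh2. FOS and FOSB sit between -2.84 and -2.4 with both hairpins, FOSL1 at -2.66 with sh1 and -0.32 with sh2, and JUND at 0.011 with sh2.

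The order of the members by level followed from these changes. With sh1 it ran JUNB, JUND, FOSL2, JUN, FOSL1, FOS and FOSB, from a mean of 193 TPM to 2.81 TPM. With sh2 it ran JUNB, FOSL1, JUND, FOSL2, JUN, FOS and FOSB, from 286 to 3.5 TPM. In control it ran JUNB, FOSL1, FOSL2, JUND, JUN, FOS and FOSB, from 630.2 to 20.9 TPM. No neighbours in any of these orders had overlapping ranges over the 3 libraries, although JUN and FOS were close in control at 76.1 ± 0.374 and 72.5 ± 0.478 TPM (SD, n = 3). FOSL1 thus stood below JUN with sh1, and next to JUNB at the top with sh2 and in control.

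Summed over the 7 genes, the family had 517 ± 4.17 TPM with sh1, 798 ± 33.6 TPM with sh2 and 1389 ± 12.8 TPM in control (SD, n = 3 each). The sums of the groups did not overlap, and each pairwise comparison gave p = 0.10 in an exact two-sided permutation test, the smallest that 3 against 3 can give. JUNB supplied 37.4% ± 0.487 of the sum with sh1, 35.8% ± 1.32 with sh2 and 45.4% ± 0.549 in control. FOSL1 supplied 7.3% ± 0.42 with sh1, 23.6% ± 2.23 with sh2 and 17.7% ± 1.07 in control. FOS and FOSB were small parts everywhere, at 2.1% ± 0.365 and 0.544% ± 0.074 with sh1, 1.65% ± 0.118 and 0.44% ± 0.049 with sh2, and 5.22% ± 0.082 and 1.5% ± 0.09 in control.

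The members that changed less took larger shares. JUND supplied 21.9% ± 0.322 of the sum with sh1 and 17.7% ± 0.27 with sh2, against 10.6% ± 0.771 in control, although its mean TPM was above that of control in neither. JUN supplied 10.8% ± 0.534 with sh1, 6% ± 0.39 with sh2 and 5.48% ± 0.054 in control. FOSL2 supplied 20% ± 0.338 with sh1, 14.8% ± 0.497 with sh2 and 14.2% ± 0.305 in control. Its sh2 range of 14.3% to 15.3% overlapped the control range of 13.9% to 14.5%.

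**Figure D3:**
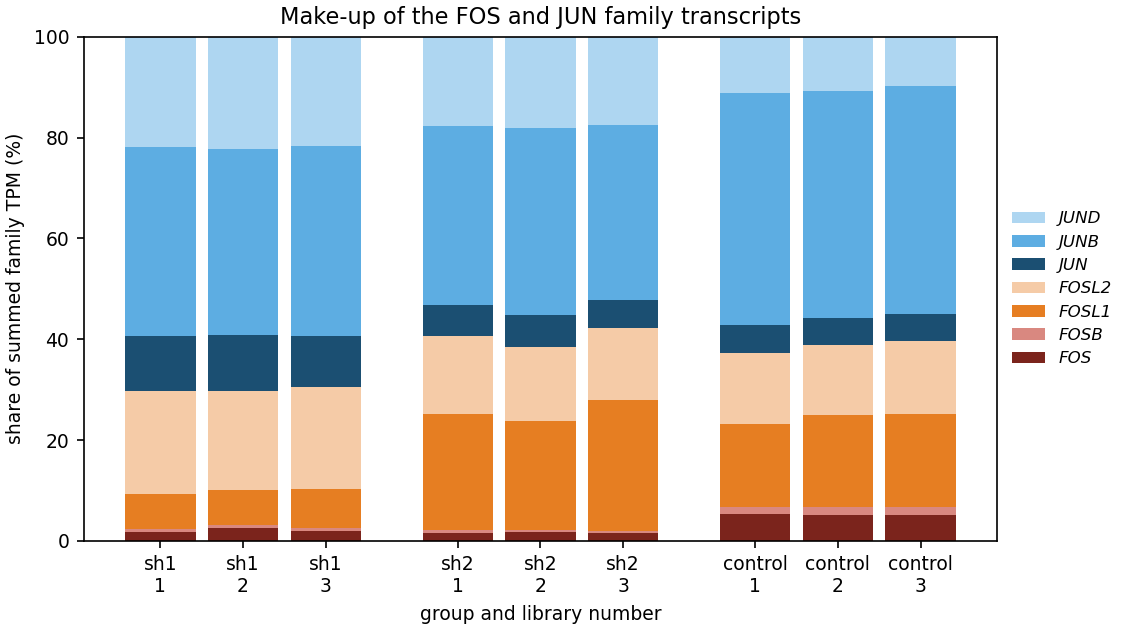
Share of the summed family TPM (%) supplied by each gene in each library of sh1, sh2 and control, with FOS class genes in reds and oranges and JUN class genes in blues. JUNB is the largest part of every bar, FOSL1 is a thin band with sh1 and a broad one with sh2 and in control, and the FOS and FOSB bands shrink with both hairpins.

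As a class, the 4 FOS genes supplied 29.9% ± 0.427 of the family TPM with sh1, 40.5% ± 1.9 with sh2 and 38.6% ± 1.17 in control (SD, n = 3 each). The sh1 range lay below both others (exact two-sided permutation p = 0.10 for each). By mean share, FOSL1 was the only FOS class gene lower with sh1 (7.3%) than with sh2 (23.6%). Against control, FOSL1 (17.7% in control), FOS and FOSB had lower shares with sh1, and FOSL2 had a higher one (20% against 14.2%). The class share without FOSL1 was not computed. The sh2 and control ranges overlapped (exact two-sided permutation p = 0.3), and the class shares depended on JUNB. Over the 6 genes without it, sh1 minus control was -22.8 percentage points, against -8.64 with it, sh2 minus control was -7.59, against 1.88 with it, and sh1 minus sh2 was -15.21, against -10.52 with it. The ratio of JUN class to FOS class transcripts was 2.34 ± 0.047 with sh1, 1.48 ± 0.117 with sh2 and 1.59 ± 0.08 in control. These are transcripts, and protein levels or dimers were not measured.

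Set directly against each other, sh1 was lower than sh2 for 6 of 7 members at an adjusted p below 0.05, where 35.6% of all tested genes were lower, and higher for 1, JUN, where 34.2% were higher and 69.8% differed in either direction. FOSL1 alone was at least 2-fold lower, as were 3.9% of tested genes. After FOSL1, the next largest difference was that of JUNB, at -0.58 ± 0.032. JUND differed by -0.34 ± 0.044 and FOSL2 by -0.21 ± 0.031. The differences for FOS, -0.29 ± 0.1 (edgeR adjusted p = 0.0118), and FOSB, -0.32 ± 0.135 (edgeR adjusted p = 0.0387), rested on few counts and on single libraries. Without sh1 library 1 the difference of FOS was -0.18 (edgeR adjusted p = 0.134), and without sh2 library 2 it was -0.24 (edgeR adjusted p = 0.0585). For FOSB the call was lost in DESeq2 (-0.32, adjusted p = 0.0747), without the filter on low counts (-0.31, edgeR adjusted p = 0.0506) and when any of 4 libraries was left out, sh1 library 1 or 3 or sh2 library 1 or 2, with values of -0.3 to -0.22 and edgeR adjusted p of 0.0839 to 0.186.

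The genes most like each member were taken as the 2 with the smallest distance between their pair of log2 fold changes (sh1 and sh2 against control), among 11036 genes with a mean of at least 5 CPM, over the 3 groups. For FOS and FOSB these were the same pair. STC2, a secreted glycoprotein gene, lay 0.0529 from FOS on the log2 scale, and CDRT4 lay 0.0532 from FOSB. As second neighbours, CDRT4 lay 0.223 from FOS and STC2 0.191 from FOSB. The position of CDRT4 is poorly fixed, since its level ran from 0 to 2.74 TPM with sh1, from 0 to 4.95 TPM with sh2 and from 5.04 to 21.9 TPM in control. FOSL1 had no close neighbour: the nearest, the chaperone gene DNAJC12, lay 0.224 away, with -2.45 ± 0.146 and -0.25 ± 0.104, and the next was MEF2C at 0.452. JUNB was nearest to RND3 at 0.0932 and KCNJ2, a potassium channel gene, at 0.0934. FOSL2 was nearest to TBC1D2 and SOX18, JUN to TBC1D30 and MZF1, and JUND to MAP2K5, a kinase of the ERK5 cascade, and SLC35A5, all within 0.028.

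Of 15 other basic leucine zipper genes of the AP-1 network, 11 were lower and 3 higher with sh1, and 10 were lower and 2 higher with sh2, where 34.6% of all tested genes were lower and 34.7% higher with sh1, and 34.3% lower and 34.2% higher with sh2. The list had median log2 changes of -0.74 and -0.94 beside 0.014 and 0.005 over all tested genes. JDP2, a repressor that pairs with JUN, stood at 17.6 ± 0.855 TPM with sh1 and 11.8 ± 0.792 with sh2, against 71.8 ± 3.01 in control (SD, n = 3). Its log2 changes were -1.99 ± 0.048 and -2.53 ± 0.05. ATF3, a stress-induced partner of JUN, stood at 39.2 ± 1.14 TPM with sh1 and 60.4 ± 1.06 with sh2, against 164 ± 2.64 in control. MAFA and MAF were scarce: MAFA had 0.507 ± 0.15, 0.253 ± 0.164 and 4.02 ± 0.814 TPM with sh1, sh2 and in control, and MAF had 0.41 ± 0.035, 0.657 ± 0.118 and 0.17 ± 0.075. MAF was thus among the few of this list that rose, by 1.46 ± 0.371 and 2.27 ± 0.325 on the log2 scale.

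Of 26 genes of the kinase cascades that lead to AP-1, 13 were lower and 9 higher with sh1 (34.6% and 34.7% of all tested genes), and 12 were lower and 9 higher with sh2 (34.3% and 34.2% of all tested genes), with medians of -0.15 and -0.034. NRAS, a RAS GTPase upstream of ERK, had the lowest fold change of the list with sh1 and stood at 13.4 ± 0.402 TPM with sh1, 32 ± 0.85 with sh2 and 38.2 ± 2.05 in control (log2 changes of -1.47 ± 0.051 and -0.19 ± 0.042). The receptor gene EGFR changed by -0.78 ± 0.039 with sh1 and -0.44 ± 0.038 with sh2, the stress kinase gene MAP3K5 by -0.7 ± 0.043 and -0.56 ± 0.042, and BRAF by -0.69 ± 0.087 and -0.43 ± 0.083. The p38 activator MAP2K6 was lower with sh1 and higher with sh2 (-0.46 ± 0.12 and 0.62 ± 0.102). RPS6KA5, encoding the kinase MSK1 that phosphorylates histone H3 and CREB, went the other way (0.21 ± 0.048 and -0.61 ± 0.052).

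Of 14 factors and coactivators that act at FOS and JUN promoters, 7 were lower and 4 higher with sh1 (34.6% and 34.7% of all tested genes), and 9 were lower and 2 higher with sh2 (34.3% and 34.2% of all tested genes), with medians of -0.14 and -0.19. SRF, which binds the serum response element of FOS, stood at 43.7 ± 0.813 TPM with sh1 and 52 ± 2.37 with sh2, against 76.5 ± 5.16 in control. CREB1, which binds the cyclic AMP response element, changed by -0.51 ± 0.036 and -0.43 ± 0.035. MEF2C, a factor known at the JUN promoter, was low throughout and changed by -2.21 ± 0.116 with sh1 and -0.29 ± 0.086 with sh2. ELK3, an SRF partner that can repress FOS, rose with sh1 by 0.5 ± 0.045 and fell with sh2 by 0.57 on the log2 scale.

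Of 12 genes that govern the decay of JUN protein or of FOS and JUN messages, 5 were lower and 5 higher with sh1 (34.6% and 34.7% of all tested genes), and 6 were lower and 5 higher with sh2 (34.3% and 34.2% of all tested genes), with medians of 0.051 and -0.15. ZFP36 (tristetraprolin), which binds AU-rich elements and speeds decay of such messages, stood at 106 ± 8.15 TPM with sh1 and 200.1 ± 20.1 with sh2, against 332 ± 12.9 in control. Its paralog ZFP36L1 changed by -0.36 ± 0.033 and -0.94 ± 0.034. ELAVL1 (HuR), which stabilises such messages, changed by 0.14 ± 0.037 with sh1 and -0.6 ± 0.04 with sh2. DET1, part of a ubiquitin ligase for JUN, changed by -0.72 ± 0.233 with sh1 and was not called with sh2 (-0.41 ± 0.22).

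**Figure D4:**
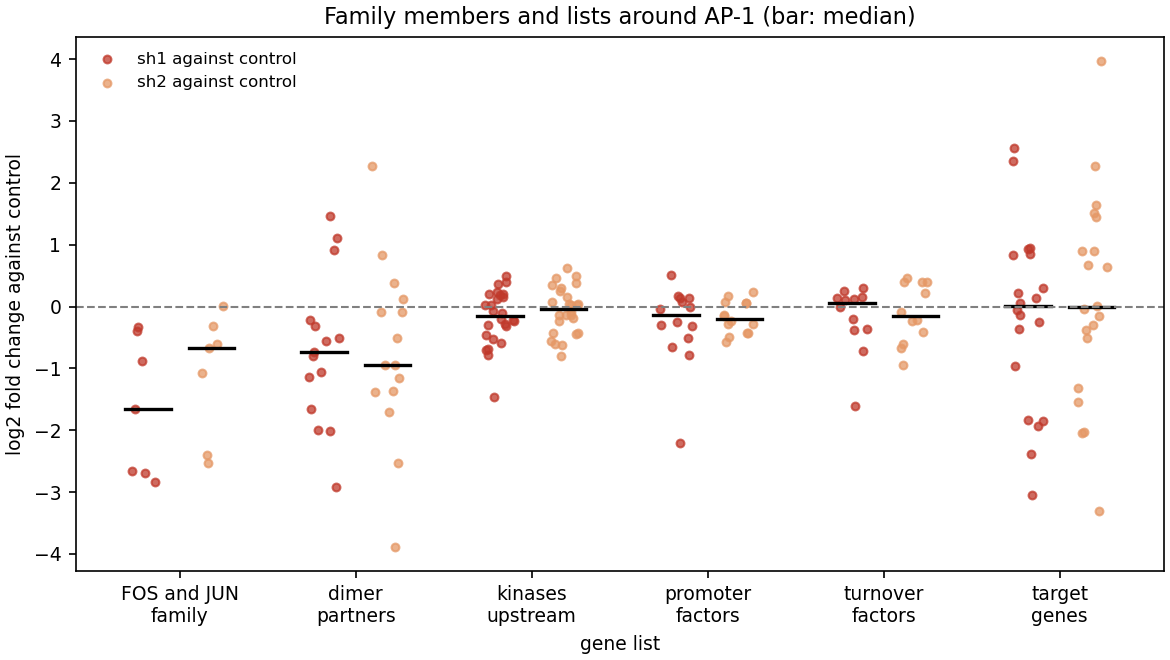
Log2 fold change against control with sh1 and sh2 for each tested gene of the FOS and JUN family and of 5 lists around AP-1, with a bar at each median. The family and the dimer partners have medians of -1.66 and -0.67 and of -0.74 and -0.94, while the kinase, promoter factor, turnover and target lists have medians between -0.19 and 0.051.

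Of 25 genes known as AP-1 targets 20 passed the filter on low counts. Of these, 9 were lower and 9 higher with each hairpin, where 34.6% and 34.7% of all tested genes were lower and higher with sh1 and 34.3% and 34.2% with sh2, with medians of 0.005 with sh1 and -0.016 with sh2. The chemokine gene CXCL8 stood at 56.4 ± 3.07 TPM with sh1 and 46.7 ± 2.39 with sh2, against 483 ± 1.14 in control (SD, n = 3). HBEGF, an EGF receptor ligand gene, stood at 6.49 ± 0.982 TPM with sh1 and 8.19 ± 1.08 with sh2, against 35.2 ± 1.65 in control, and the cytokine gene IL6 at 1.48 ± 0.523 TPM with sh1 and 1.33 ± 0.369 with sh2, against 5.54 ± 0.872 in control. IVL, encoding involucrin of the cornified envelope, moved the other way, to 10.2 ± 0.777 TPM with sh1 and 30.8 ± 1.72 with sh2, against 2.05 ± 0.284 in control. The adhesion receptor gene CD44 changed by 0.13 ± 0.027 with sh1 and -0.16 ± 0.027 with sh2. Of the matrix metalloproteinase genes, MMP1, MMP3, MMP9 and MMP10 reached at most 1.45, 0.46, 0.41 and 0.6 TPM in any library, and CCL2 was at 0 in all 9, so these 5 were not tested. The metalloproteinase genes MMP7 and MMP13 of the same list, named here after their values were seen, rose with both hairpins. The log2 changes of MMP7 were 0.95 ± 0.078 for sh1 and 2.26 ± 0.064 for sh2, and those of MMP13 were 0.83 ± 0.126 for sh1 and 1.51 ± 0.113 for sh2.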

How the data were processed

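Total RNA of KYSE510 cells went into libraries made by BGISEQ-500 protocols, per the labels. The build hg19 and the tools RSEM 1.2.12, DESeq2 1.4.5, HISAT2 2.0.4 and Bowtie2 2.2.5 appear in the submitters' processing notes, with no role given. For each Entrez gene the authors deposited FPKM, TPM and expected count values, per the file headers. The strand setting of the counting is not stated in these sources, and genes that overlap another are therefore uncertain. Symbols came from RefSeq (GRCh38.p14) for 19223 of 19266 genes. Members and lists were chosen with earlier results of these data known.

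The tables of a sample differed by more than sampling noise (chi-square per gene of 1.41 to 2.44, over genes averaging 20 counts or more) and were kept as 3 libraries. Expected counts were rounded and fitted in edgeR 4.0.16 (R 4.3.3) with filterByExpr, TMM and 1 quasi-likelihood fit over all 9 libraries with group as the only term. Adjusted p-values cover 13580 genes and calls are at 0.05. The SE is the absolute log2 fold change over the square root of F. Deposited TPM set genes side by side, with exact permutation tests over libraries, and limma 3.58.1 on log2 of the deposited FPKM values was an alternative. The test was checked on simulated data in which few genes changed with sh1 and none with sh2. That check does not cover data in which 69.3% of tested genes were called with sh1, nor tables that may be technical. A floor of 3 counts equals 0.186 to 0.205 CPM, for counting error only. Named genes were all members, the 4 genes per list with the largest mean absolute change over both hairpins, up to 2 more called in opposite directions, and the 2 nearest to each member; some of these are not reported here.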

Additional observations from a re-analysis of the deposited data

Results flagged for a closer look

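For all 7 members the effects of the hairpins against the shared control differed from each other in the direct test of sh1 against sh2 (quasi-likelihood test of edgeR, adjusted over all genes), which is what put them here, where 69.8% of all tested genes also differed. On the log2 scale the effect of sh1 minus that of sh2 was -2.34 for FOSL1, -0.58 for JUNB, -0.34 for JUND, -0.32 for FOSB, -0.29 for FOS, -0.21 for FOSL2 and 0.2 for JUN. The hairpins are a single sample each, so a difference between the hairpins and one between 2 cultures cannot be told apart.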

How the results depend on the processing

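With each sample's 3 tables summed, 2 hairpin samples stood against 1 control and edgeR called 0 of 7 members for the hairpin mean (smallest adjusted p 0.273, 4 members and 833 genes at an unadjusted p under 0.05, 0 genes called), whereas the fit on 9 libraries called 7. Asking for at least 2-fold as well left 4 members for sh1, 3 for sh2, 4 for the hairpin mean and 1 for the difference of the hairpins, by construction. All of these were lower, as were 5.21%, 4.61%, 3.36% and 3.9% of tested genes by that much. Without JUNB the difference in FOS class share was -7.59 percentage points for sh2 minus control (1.88 with it), -22.8 for sh1 minus control (-8.64 with it) and -15.21 for sh1 minus sh2 (-10.52 with it). Under DESeq2, RLE or no scaling, no filter, log2 FPKM and single omitted libraries, 7 members were called for sh1 and 6 for sh2. These were against control, and sh1 against sh2 gave 5 to 7, with 5 when sh1 library 1 or sh2 library 2 was left out. Those settings called 8540 to 9521 genes for sh1, 8364 to 9384 for sh2 and 8514 to 9541 for sh1 against sh2. They tested 11774 to 17193 genes. The median of all genes moved by less than 0.1 under each scaling. A replicate block on the table number gave 7 members for sh1, 6 for sh2 and 7 for sh1 against sh2. It called 9431, 9295 and 9501 of 13580 genes in the same comparisons. Same-numbered tables correlated at -0.073 to 0.099 in their deviations, so the numbers were not taken as pairs. The step without FOSL1 was not run, so how far the FOS class share rests on FOSL1 was not tested. FOSL1 supplied 7.3% of the family TPM with sh1, 23.6% with sh2 and 17.7% in control. Depth limits FOSB and FOS most, at 57 to 202 counts in the hairpin libraries.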
